A study of Mus musculus with 18 samples.

Results

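The heat response of mouse fibroblasts with knocked-down HSF1 was read from 6 of 18 arrays: 3 arrays of HSF1-KD cells held for 1 h at 42 °C (heat shock, HS) and 3 arrays of HSF1-KD cells kept at 37 °C (Cont). The arrays were chosen by their titles alone, and every gene with a probe set of its own was examined, 19938 gene symbols in all. All 18 arrays were Affymetrix whole-transcript arrays of immortalized mouse embryonic fibroblasts (MEF cells) on an ICR background. The cells first received an adenovirus for 2 h and then stayed in normal medium for 70 h. The virus carried a short hairpin RNA against mouse HSF1 (HSF1-KD), a hairpin against the mitochondrial single-stranded DNA-binding protein SSBP1 (SSBP1-KD) or a scrambled hairpin (SCR), so that the controls were virus-infected too. SCR and SSBP1-KD cells gave 3 Cont and 3 HS arrays each, and HSF1-KD rested on a single hairpin in 1 MEF stock, per the study methods. The labels number the replicates without saying whether they were independent cultures, so the p-values below describe the scatter of these arrays, which may be technical.

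HSF1 is the transcription factor that heat and other protein-damaging stresses activate in mammalian cells. On activation it forms trimers, binds inverted repeats of the letters GAA (heat shock elements) in front of chaperone genes and drives their transcription. Heat also starts responses that are classically ascribed to other factors, among them the immediate-early genes downstream of MAP kinases, and it disturbs RNA processing. The comparison therefore asked which changes remained when HSF1 was knocked down. Hsf1 itself has no probe set of its own here, so the depth of the knockdown was not checked on these arrays.

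The array medians lay between 7.88 and 7.94 on the log2 scale, and any pair of arrays within an HSF1-KD group correlated at 0.9929 or higher over all probe sets. All 10 fibroblast markers examined were measured in HSF1-KD Cont with mean log2 signals of 7.90 (Thy1) to 14.01 (Sparc), among them 13.86 for Vim and 12.61 for Col1a1. Of these, Pdgfrb fell by 0.28 and Col1a2 by 0.18 with heat shock (limma, adjusted p = 0.00372 and 0.0275). Among the markers of epithelial, endothelial, blood, nerve and muscle cells, Cd3e rose by 0.63, Cd68 by 0.39 and Tubb3 by 0.27, Kdr fell by 0.20, and the others did not pass the test. The HSF1-KD Cont means of those markers ran from 5.26 (Emcn) to 9.70 (Cd68), with 6 of 7 blood cell markers and all of the others measured, and their part in the results was not tested. In such bulk RNA, fewer cells of a type and less RNA per cell cannot be told apart.

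The genes with the greatest falls after heat shock in HSF1-KD cells were microRNA genes. MicroRNAs are short RNAs cut from a hairpin, and bases 2 to 8 of the mature strand, the seed, pair with target messages. The mature strands of microRNA genes that fell, and of close relatives, are given from RefSeq (assembly GRCm38.p6), with the seed in capitals, to show which of them share a seed.
miR-15b-5p: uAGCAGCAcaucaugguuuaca
miR-15a-5p: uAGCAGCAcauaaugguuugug
miR-16-5p: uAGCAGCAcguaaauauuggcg
miR-186-5p: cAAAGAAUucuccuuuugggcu
miR-181b-5p: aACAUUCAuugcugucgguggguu
miR-19a-3p: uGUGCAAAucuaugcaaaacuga
miR-19b-3p: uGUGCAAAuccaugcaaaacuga
miR-125b-5p: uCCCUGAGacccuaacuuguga
miR-18a-5p: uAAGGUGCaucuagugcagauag
let-7d-5p: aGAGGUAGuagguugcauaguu
let-7c-5p: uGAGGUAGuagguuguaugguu
let-7e-5p: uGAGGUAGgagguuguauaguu
miR-98-5p: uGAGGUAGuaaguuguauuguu
miR-301a-3p: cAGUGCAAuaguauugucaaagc
miR-130a-3p: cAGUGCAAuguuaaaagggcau
The strand of miR-15b lies at chr3:69009775-69009796, that of miR-186 at chr3:157544285-157544306 and that of miR-181b from Mir181b-1 at chr1:137966650-137966673, all on the plus strand. The labelling kit copies long RNA, and the probe sets named for microRNA genes were read as signal from their precursor or host transcripts, not from the mature strands.

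At a Benjamini-Hochberg adjusted p under 0.05 in limma (called, below), heat shock raised 2114 genes in HSF1-KD cells, 10.6% of those tested, and lowered 2158 genes, 10.8%. In SCR cells it raised 1522 genes (7.63%) and lowered 1663 (8.34%). Most of the changes in HSF1-KD cells were small: the median absolute change was 0.25 among raised and 0.26 among lowered genes, and 13 genes rose and 35 fell more than 2-fold, against 41 and 43 in SCR cells. By the study's threshold for the arrays, a fold change over 1.5 with an unadjusted p under 0.05, HSF1-KD cells raised 63 genes (0.316%) and lowered 106 (0.532%). The 3 HS arrays lay wholly above the 3 Cont arrays for 2091 of the 2114 raised genes and wholly below them for 2136 of the 2158 lowered genes. These genes were called on the same arrays, so the lack of overlap largely follows from the call and is no separate support.

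The directions were largely those seen in SCR cells, whose arrays are separate. Of the genes raised in HSF1-KD cells, 1116 were also raised in SCR cells (52.8% of the HSF1-KD set and 73.3% of the SCR set), and 0 were lowered there. Of the lowered genes, 1195 were lowered in both (55.4% and 71.9%), and 7 were raised in SCR cells. Over all genes, the log2 changes in HSF1-KD correlated with those in SCR at r = 0.718 and with those in SSBP1-KD at 0.646, as a description across genes, which are not independent replicates. Raised in all 3 kinds of cells were 526 genes, and lowered in all 380. When the difference in heat response itself was tested, 67 genes (0.336%) responded lower in HSF1-KD than in SCR and 2 genes (0.01%), Egr1 and Ccnf, responded higher.

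**Figure D1:**
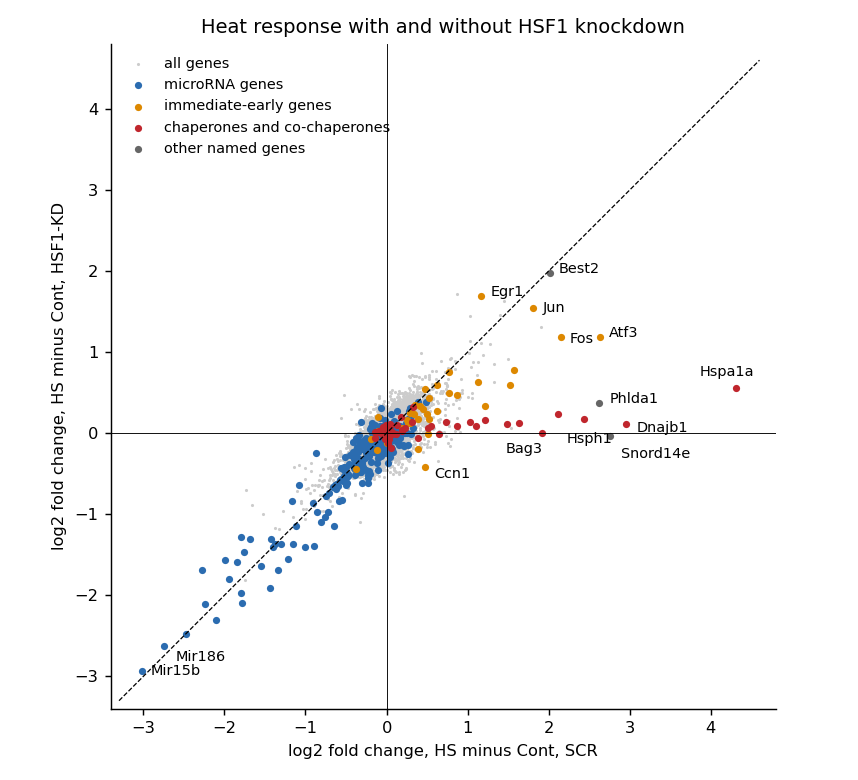
Log2 change with heat shock (HS minus Cont) in SCR cells (horizontal axis) and in HSF1-KD cells (vertical axis), with 1 point per gene and a dashed line where both are equal. Chaperones (red) lie along the horizontal zero line, and microRNA genes (blue) lie near the dashed line down to -2.94 for Mir15b in HSF1-KD. Immediate-early genes (orange) are spread, with Jun, Fos and Atf3 between these lines, Egr1 above the dashed line and Ccn1 below the zero line.

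Few chaperones, the classical products of the heat shock response, rose in HSF1-KD cells. Of 44 measured cytosolic and nuclear chaperones and co-chaperones, 4 rose (9.09%, near the 10.6% of all genes) and 0 fell. The median change was 0.06 beside -0.009 over all genes. In SCR cells 21 of the same 44 rose (47.7%, beside 7.63% of all genes). Hspa1a, which encodes the heat-inducible HSP70, read 8.52, 8.62 and 8.61 in HSF1-KD Cont and 9.10, 9.14 and 9.16 in HSF1-KD HS. All HS arrays were above all Cont arrays, and the rise was 0.55 (SE 0.066, limma adjusted p = 5.3e-05). The rise in SCR was 4.31, and the responses differed by -3.76 (95% interval -3.96 to -3.56, adjusted p = 1e-11). Hspa1a has a near-identical copy, Hspa1b, and the arrays may not separate them. The other rises were 0.24 for the small heat shock protein Hspb1, 0.20 for Bag4 and 0.14 for the HSP70-interacting protein St13, and each of these 3 calls was lost under at least 2 of the alternative settings (highest adjusted p 0.148, 0.0811 and 0.128).

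For the remaining strongly inducible chaperones the HSF1-KD arrays showed no call. Dnajb1, an HSP40 that feeds substrates to HSP70, read 9.65, 9.54 and 9.49 in Cont and 9.76, 9.70 and 9.54 in HS, so that the groups overlapped. Its change was 0.11 (adjusted p = 0.34) against 2.96 in SCR, a difference of -2.85 (interval -3.06 to -2.63, adjusted p = 6.7e-10). Hsph1, the HSP110 exchange factor, read 10.38, 10.48 and 10.32 in Cont and 10.54, 10.59 and 10.56 in HS. These groups did not overlap, but the change of 0.17 was not called (adjusted p = 0.13), and it was lower than that in SCR by 2.27 on the log2 scale (difference -2.27, adjusted p = 9.9e-09). Bag3, a co-chaperone of selective autophagy, read 10.06, 10.06 and 10.05 in Cont and 10.09, 10.17 and 9.91 in HS, a change of 0.00 where SCR gave 1.92.

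Further changes were small for Hspb8 (0.17), Dnaja1 (0.14), Ahsa1 (0.14), Dnaja4 (0.13), Dnajb4 (0.11), Hsp90aa1 (0.09), Hspa4l (0.09) and Fkbp4 (-0.01), with none called in HSF1-KD and all responding lower than in SCR by the test of the difference. For Dnaja1 the difference was -0.89, and -2.24 in the second probe set of the gene. The HSP70 of unstressed cells, Hspa8, changed by 0.03 in HSF1-KD and by 0.19 in SCR, and this difference was not called (adjusted p = 0.46, interval -0.29 to -0.04). In mitochondria, the chaperonin Hspd1 changed by 0.06 and its partner Hspe1 by 0.01, with differences from SCR of -0.83 (adjusted p = 1.3e-05) and -0.65 (adjusted p = 0.0089), the latter lost under the methods' t-test. Mitochondrial HSP70, Hspa9, changed by 0.02 and did not differ from SCR by the test (interval -0.17 to 0.08). Of the TRiC chaperonin and prefoldin subunits, which fold actin and tubulin, 1 of 14 rose (7.14%, beside 10.6% of all genes) and 0 fell. The gene that rose was Cct2, by 0.11, with a call that was lost under some alternatives.

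**Figure D2:**
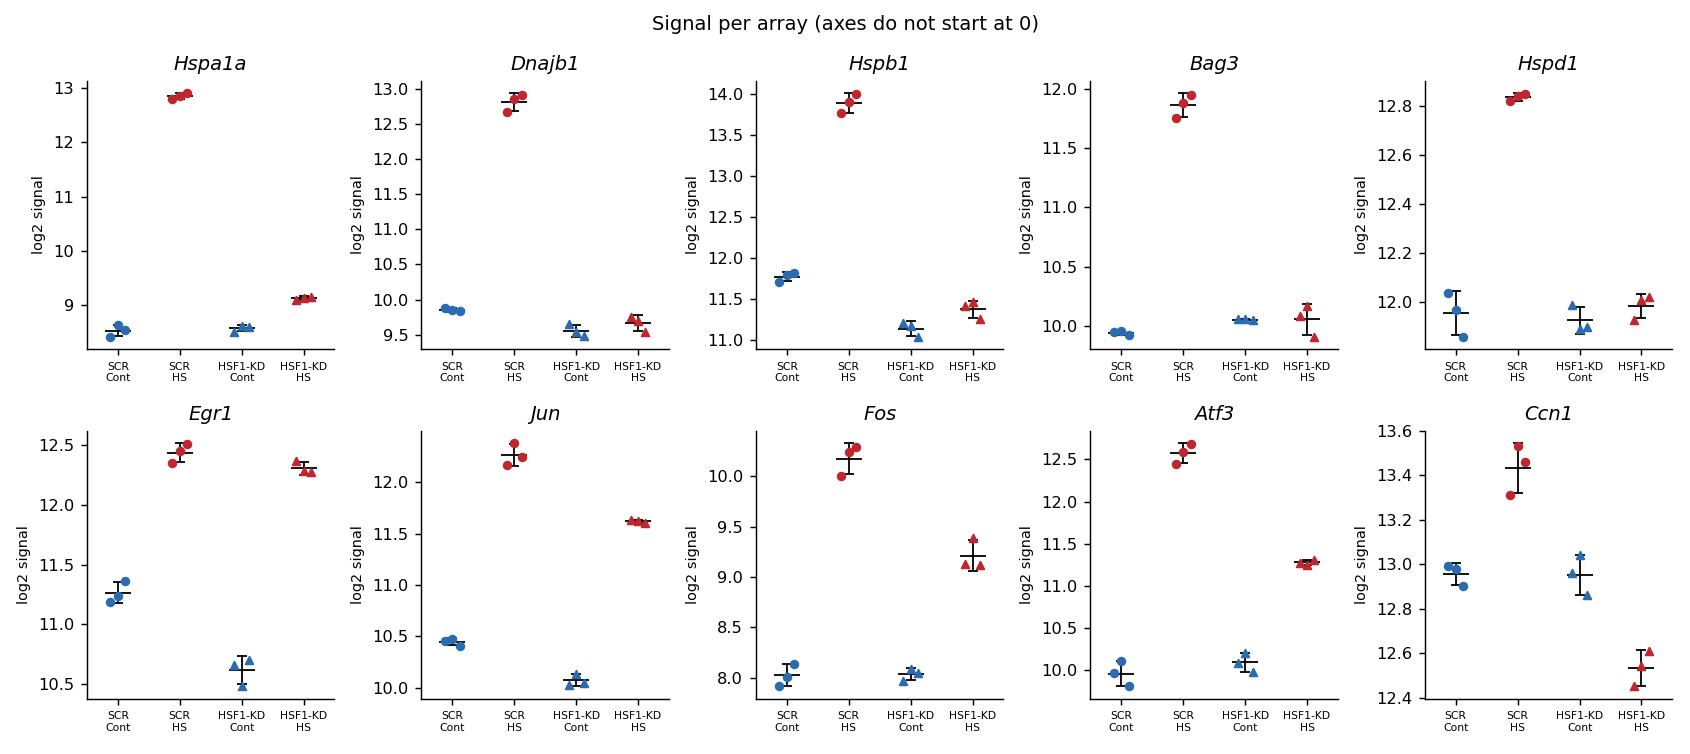
Log2 signal of 10 genes on each array, with SCR as circles, HSF1-KD as triangles, Cont in blue and HS in red, and the mean and SD of each group of 3 in black. In the upper row the HSF1-KD HS arrays stay near the Cont level for Dnajb1, Bag3 and Hspd1 while the SCR HS arrays are high, and in the lower row Egr1, Jun, Fos and Atf3 rise in both kinds of cells and Ccn1 moves in opposite directions.

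Immediate-early genes, transcribed within minutes of MAP kinase signalling without new protein synthesis, rose in HSF1-KD cells as a group. Of 36 measured, 23 were raised (63.9%, beside 10.6% of all genes) and 4 were lowered, with a median change of 0.26. In SCR cells 29 were raised (80.6%, beside 7.63% of all genes). Egr1, a zinc finger factor of growth and stress signalling, read 10.66, 10.48 and 10.70 in Cont and 12.37, 12.28 and 12.27 in HS, a rise of 1.69 (SE 0.068, limma adjusted p = 2.3e-09) with no overlap. Jun, a component of the AP-1 factor, read 10.03, 10.14 and 10.05 in Cont and 11.63, 11.62 and 11.60 in HS, a rise of 1.54 beside 1.81 in SCR. For Jun the difference from SCR was -0.27 (interval -0.42 to -0.12, adjusted p = 0.22), and for Egr1 the rise was larger in HSF1-KD by 0.52 (interval 0.31 to 0.72, adjusted p = 0.028). The mean Egr1 signal was 10.61 in HSF1-KD Cont against 11.26 in SCR Cont, and 12.31 against 12.44 in HS, and the call of the difference was lost in 10 of 21 alternatives.

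Of the 36 immediate-early genes, 8 responded lower and 1 higher in HSF1-KD than in SCR by the test of the difference. Fos, Atf3 and Egr2 were among the 8. Fos, the partner of Jun in AP-1, read 7.97, 8.09 and 8.05 in Cont and 9.13, 9.39 and 9.12 in HS. It rose by 1.18 against 2.15 in SCR (difference -0.98, adjusted p = 0.0037). Atf3, a stress-induced repressor of the same family, read 10.08, 10.20 and 9.98 in Cont and 11.27, 11.25 and 11.31 in HS, a rise of 1.19 against 2.63 (difference -1.44, adjusted p = 7.4e-06). For both genes every HS array was above every Cont array within HSF1-KD. Egr2 rose by 0.78 against 1.57 (difference -0.79, adjusted p = 0.012), whereas Zfp36, which destabilises messages with AU-rich elements, rose by 0.75 against 0.77 (interval of the difference -0.24 to 0.20). Of 17 Kruppel-like factors 5 rose (29.4%, beside 10.6% of all genes) and 0 fell. Klf6 led them with 0.63 against 1.13 in SCR (difference -0.50, limma adjusted p = 0.0017), and Klf4 rose by 0.43 and Klf5 by 0.28.

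Feedback inhibitors of MAP kinases rose along with them. Of 19 measured phosphatases, Sprouty and SPRED genes and related inhibitors, 11 were raised (57.9%, beside 10.6% of all genes) and 1 was lowered (median 0.26). In SCR cells 14 were raised (73.7%, beside 7.63% of all genes) and 1 was lowered. By the test of the difference 4 of the 19 responded lower in HSF1-KD than in SCR, beside 0.336% of all genes. Dusp1, which dephosphorylates p38, JNK and ERK, read 11.15, 11.22 and 11.09 in Cont and 12.02, 12.14 and 12.05 in HS. The HS arrays were all higher, and the rise of 0.91 was lower than the 1.498 of SCR (difference -0.58, interval -0.76 to -0.41, adjusted p = 0.0031). Dusp8 rose by 0.88 against 1.13 in SCR, a difference that was not called (adjusted p = 0.34), and Dusp5, a nuclear ERK phosphatase, by 0.53 against 0.93 (adjusted p = 0.032, lost in 12 of 21 alternatives). The ERBB inhibitor Errfi1 rose by 0.35, Spred1 by 0.35 and Dusp7 by 0.33.

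How much of the SCR response was retained was described for the 118 genes that rose more than 1.5-fold in SCR cells. These were chosen on the SCR arrays, so the shares carry no test. In HSF1-KD cells 83 of the 118 were raised, and the median gene reached 53.4% of its SCR log2 change. Among 13 chaperones of this set 2 were raised and the median share was 8.05% (-1.51% to 19.3%), whereas all 13 immediate-early genes were raised with a median share of 54.6% (27.6% to 144%) and 5 of 7 feedback inhibitors with 48.8% (-17.7% to 77.7%). In SSBP1-KD cells the median shares were 40.7% for the same chaperones, 41.9% for the immediate-early genes and 49.5% for all 118 genes.

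Several of the largest rises in HSF1-KD cells were those of genes outside these lists. Best2, a bestrophin chloride channel, read 7.63, 7.25 and 7.74 in Cont and 9.44, 9.64 and 9.45 in HS. Its rise of 1.97 (SE 0.14, adjusted p = 9.4e-07) was the largest by the naming rule and lay beside 2.01 in SCR and 1.63 in SSBP1-KD (difference from SCR -0.04, interval -0.47 to 0.39). Tas2r143, a bitter taste receptor gene, rose by 1.14, Lrrn4cl by 1.11, the proteoglycan gene Cspg5 by 0.99, the iodide transporter gene Slc5a5 by 0.96, the sulfotransferase gene Sult6b1 by 0.93, the tubulin carboxypeptidase gene Agbl2 by 0.91 and the receptor gene Gpr75 by 0.89. All of these were also raised in SCR, by 0.79 to 1.19, with no called difference. The vault RNA gene Vaultrc5 read 6.74, 6.89 and 7.18 in Cont and 8.65, 8.66 and 7.90 in HS. It rose by 1.46, with HS replicate 3 nearest to the Cont arrays, and the call was lost under the methods' t-test (adjusted p = 0.0588).

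A few genes were called in opposite directions in the 2 kinds of cells. Ccn1, a secreted matrix protein whose gene responds to SRF and YAP, read 12.96, 13.04 and 12.86 in Cont and 12.45, 12.54 and 12.61 in HS. Every HSF1-KD HS array was below every Cont array, and the fall of 0.42 on the log2 scale (change -0.42, adjusted p = 0.00026) stood against a rise of 0.48 in SCR (difference -0.90, interval -1.08 to -0.71, adjusted p = 6.3e-05). Its relative Ccn2 changed by -0.19 against 0.39 (difference -0.58, adjusted p = 0.0068), and its own call in HSF1-KD was lost when any 1 of the 6 arrays was left out. Plekhf1, an endosomal protein gene, changed by -0.23 against 0.45 and the autophagy gene Atg16l2 by -0.14 against 0.15, and both HSF1-KD calls were also lost under several alternatives. The difference between HSF1-KD and SCR was called for Atg16l2 only in part of the settings: that call was lost in 17 of 21 alternatives, among them each left-out array (adjusted p up to 0.17). Id1, an inhibitor of basic helix-loop-helix factors, read 9.92, 10.05 and 9.85 in Cont and 9.50, 9.51 and 9.37 in HS, a change of -0.48 where SCR had 0.12, which was not called (difference -0.59, adjusted p = 0.0088). Atp6v0a1, a proton pump subunit gene named here after its values were seen, changed by -0.52 against -0.10 (difference -0.43, adjusted p = 0.0088). Ccnf, which encodes cyclin F, read 11.03, 11.09 and 11.13 in Cont and 10.76, 10.76 and 10.76 in HS, and its change of -0.32 was smaller than the -0.76 of SCR (difference 0.43, adjusted p = 0.004).

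The microRNA genes were examined by their RefSeq biotype after their values had been seen. Of 297 measured, 90 were lowered in HSF1-KD cells (30.3%, beside 10.8% of all genes) and 3 were raised, with a median change of -0.15. SCR cells lowered 80 and raised 4 of them, beside 8.34% and 7.63% of all genes. SSBP1-KD cells lowered 74 and raised 3, beside 2.82% and 4.08% of all genes. They made up 29 of the 35 genes that fell more than 2-fold in HSF1-KD. Of the 90 lowered microRNA genes, 70 were also lowered in SCR, 65 in SSBP1-KD and 58 in both. The heat responses of the 29 differed from those in SCR by -0.49 to 0.59, and 0 of these differences was called.

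Mir15b read 7.03, 7.13 and 7.43 in HSF1-KD Cont and 4.25, 4.36 and 4.16 in HS. The groups were far apart, with a change of -2.94 (SE 0.18, limma adjusted p = 2.1e-07) beside -3.02 in SCR and -2.69 in SSBP1-KD (difference from SCR 0.08, interval -0.45 to 0.62). Mir186 read 7.55, 7.003 and 7.61 in Cont and 4.72, 4.82 and 4.71 in HS, a change of -2.63 (adjusted p = 2e-06). Mir181b-1 read 8.10, 7.91 and 8.14 in Cont and 5.58, 5.77 and 5.36 in HS, a change of -2.48 (adjusted p = 8.5e-07). Neither gene had overlapping arrays, and neither differed in response from SCR by the test (intervals -0.53 to 0.74 and -0.54 to 0.52). For the 29 genes the HS means went down to 3.22, below the 5th percentile of all genes in Cont (5.28).

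Seed families were taken mainly from microRNAs that fell strongly, so a high share lowered follows in part from that choice. Their counts are to be read beside 30.3% of the measured microRNA genes and 10.8% of all genes lowered. Some families hold only 2 or 3 measured genes. The let-7 and miR-98 genes, whose products restrain growth and stem cell genes, were lowered in 8 of 9 cases with a median change of -1.10. Mirlet7d changed by -1.92, Mirlet7c-1 by -1.59, Mirlet7e by -1.40 and Mir98 by -1.37. The miR-15/16 genes were lowered in 3 of 6 cases (median -0.78), the miR-19 and miR-125 genes in 3 of 3 each (medians -1.55 and -0.74), the miR-130/301 genes in 2 of 3 (-1.30), the miR-181 genes in 3 of 6 (-0.28) and the miR-29 genes in 1 of 2 (-0.96).

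**Figure D3:**
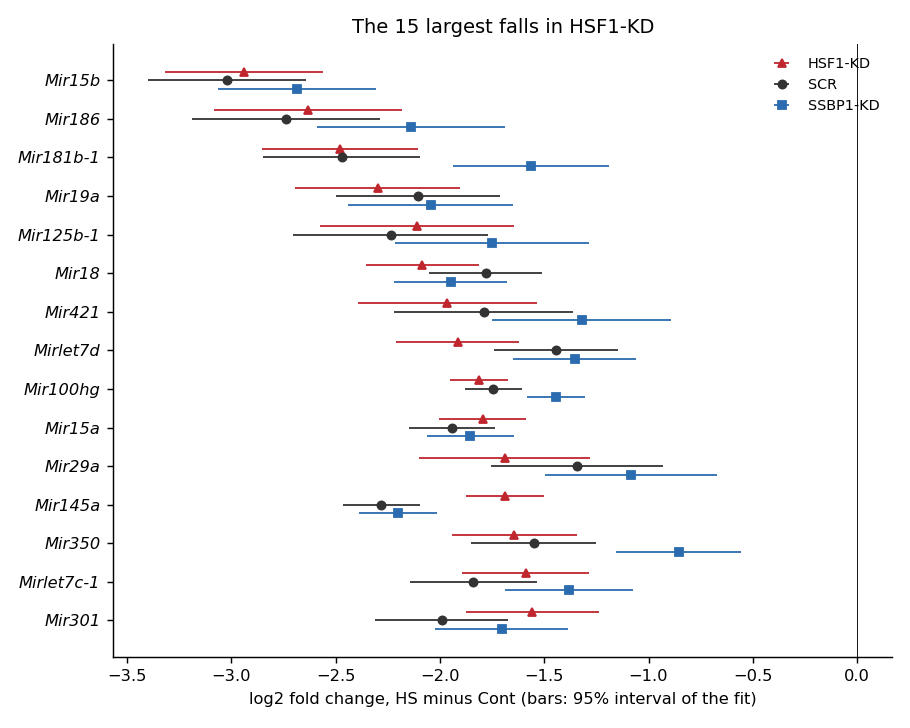
Log2 change with heat shock for the 15 genes that fell most in HSF1-KD, with the estimate and 95% interval in HSF1-KD (red triangles), SCR (black circles) and SSBP1-KD (blue squares). All estimates lie below 0 in all 3 kinds of cells, from -2.94 for Mir15b to -1.56 for Mir301 in HSF1-KD.

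The changes of neighbours in microRNA clusters are given side by side. Next to Mir15b on chromosome 3, Mir16-2 changed by -1.31. On chromosome 14, Mir15a changed by -1.80 and its neighbour Mir16-1 by -0.25 (limma adjusted p = 0.073). In SCR these 2 changed by -1.94 and -0.87, and in SSBP1-KD by -1.85 and -0.56. The difference of Mir16-1 from SCR was not called in the main fit but was called in 3 of 20 alternatives. In the miR-17 cluster, also on chromosome 14, the changes were -2.09 for Mir18, -2.30 for Mir19a, -1.55 for Mir19b-1, -1.04 for Mir20a and -1.06 for the host transcript Mir17hg. The chromosome 17 neighbours Mir99b, Mirlet7e and Mir125a changed by -0.43, -1.40 and -0.74, and on chromosome 1 Mir181a-1 changed by -0.37 beside the -2.48 of Mir181b-1. These cluster members, apart from those the naming rule picked, were chosen after their values were seen, and the differences between neighbours were not tested. Several of the HS signals, such as the 3.95 to 4.35 of Mir19a, lay below the 5th percentile of all genes in Cont (5.28).

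The genes that contain the microRNAs fell with them in a minority of pairs. A measured gene spanned the microRNA gene in 146 pairs, and in 47 of these the microRNA gene was lowered in HSF1-KD. The spanning gene was lowered in 12 of the 47 pairs (25.5%, beside 10.8% of all genes), raised in 7 and not called in 28. The median changes were -0.62 for the microRNA genes and -0.01 for the spanning genes. The 47 pairs held only 38 different spanning genes, so the share of pairs is not a share of genes. Among the lowered, Spaca6 was counted with Mirlet7e, Mir125a and Mir99b, and Mir100hg with Mir125b-1 and Mir100. Mir15b lies within Smc4, a condensin subunit gene, which read 11.87, 11.65 and 11.75 in Cont and 11.82, 11.83 and 11.87 in HS, a change of 0.08 (adjusted p = 0.37). Zranb2 around Mir186 changed by -0.05, Cep170 around Mir350 (-1.64) by 0.06 and Huwe1 around Mir98 by 0.06, none of them called. Dleu2 around Mir15a, which read 2.79 to 3.96 in Cont and 2.18 to 2.88 in HS, changed by -0.70 with an SE of 0.50 and was not called (adjusted p = 0.38), beside -1.73 in SCR. Ska2, a spindle protein gene around Mir301 (-1.56), rose by 0.19 (adjusted p = 0.0034), a call lost in 2 alternatives. Mir100hg, the noncoding host of Mir125b-1, read 10.32, 10.28 and 10.32 in Cont and 8.58, 8.55 and 8.36 in HS, a change of -1.81 beside -2.11 for Mir125b-1. The spanning genes were chosen after the values were seen, and their strand was not compared with that of the small RNA.

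Small nucleolar RNA genes, which guide the modification of ribosomal RNA and lie in introns, behaved unevenly. Of 54 measured, 19 were lowered in HSF1-KD (35.2%, beside 10.8% of all genes) and 4 raised, with a median of -0.19. SCR cells lowered 14 and raised 4, beside 8.34% and 7.63% of all genes. Snord37, within the elongation factor gene Eef2, read 8.93, 9.002 and 8.75 in Cont and 10.01, 10.06 and 9.92 in HS. It rose by 1.10 beside 1.27 in SCR, while Eef2 changed by 0.06. Snord14e, within Hspa8, read 10.20, 10.47 and 10.24 in Cont and 10.23, 10.26 and 10.31 in HS, overlapping groups with a change of -0.03, whereas it rose by 2.76 in SCR and 2.06 in SSBP1-KD (difference from SCR -2.79, interval -3.07 to -2.52, adjusted p = 9.9e-09). Snora20, within the TRiC subunit gene Tcp1, read 8.47, 8.55 and 8.48 in Cont and 7.71, 7.79 and 7.65 in HS. Its change of -0.78 differed from the 0.21 of SCR (difference -0.99, adjusted p = 0.0037), and Tcp1 changed by 0.02.

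**Figure D4:**
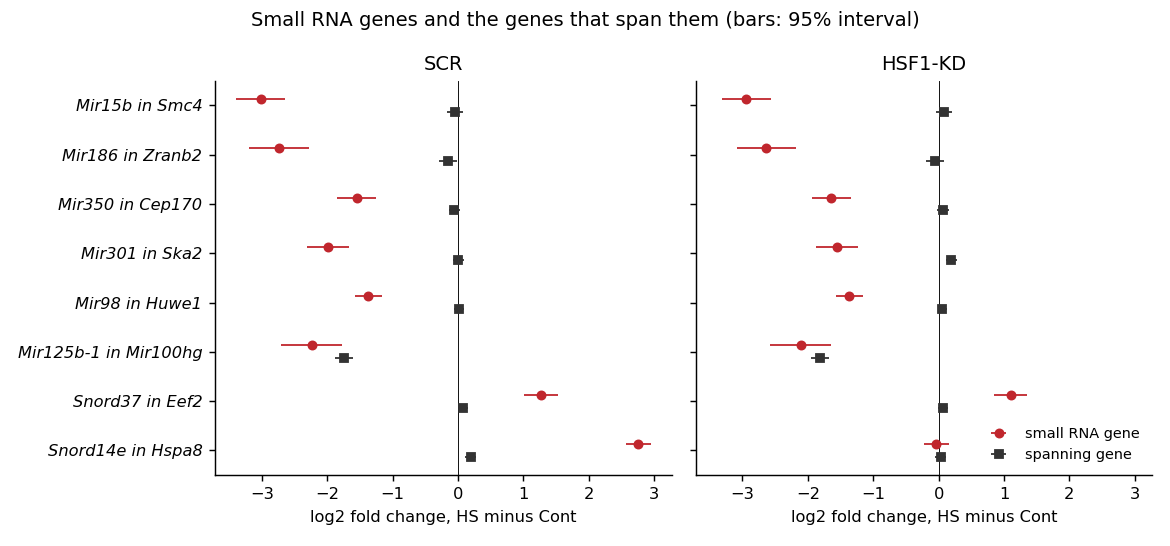
Log2 change with heat shock, with 95% intervals, of 8 small RNA genes (red circles) and of the genes that span them (black squares) in SCR (left) and HSF1-KD (right). In HSF1-KD the spanning genes lie within 0.2 of 0 except Mir100hg at -1.81, and Snord14e lies at -0.03 there beside 2.76 in SCR.

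Protein folding genes of the endoplasmic reticulum fell in HSF1-KD cells. Of 25 chaperones and unfolded-protein response genes, 15 were lowered (60.0%, beside 10.8% of all genes) and 0 raised, with a median of -0.18. SCR cells lowered 7 of the 25 (28.0%, beside 8.34% of all genes). The HSP40 Dnajb11 read 10.50, 10.53 and 10.48 in Cont and 10.08, 10.11 and 10.11 in HS, all lower, with a change of -0.40 (adjusted p = 7.8e-05). Dnajc3 changed by -0.34, the degradation ligase gene Syvn1 by -0.30 and Creld2 by -0.29. None of the 25 genes differed in response from SCR by the test, so the larger number of calls in HSF1-KD is not shown to be a difference.

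Parts of the sterol and matrix gene lists were lowered, beside 10.8% of all genes. In cholesterol synthesis 9 of 19 genes were lowered (47.4%) and 0 raised (median -0.13). The squalene epoxidase gene Sqle read 11.87, 11.91 and 11.88 in Cont and 11.51, 11.44 and 11.45 in HS, a change of -0.42. Its groups did not overlap, and Cyp51 changed by -0.31, Nsdhl by -0.27, Msmo1 by -0.26 and the regulator Srebf2 by -0.24. Of 28 extracellular matrix genes 11 were lowered (39.3%) and 0 raised (median -0.09). The metalloproteinase inhibitor gene Timp3 read 13.06, 13.08 and 13.05 in Cont and 12.59, 12.62 and 12.59 in HS. This change of -0.47 (adjusted p = 1.5e-06) was beside -0.22 in SCR (adjusted p of the difference 0.068), and Mmp14 changed by -0.31, Timp2 by -0.29 and Bgn by -0.27.

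Transcription and signalling regulators listed for unstable messages moved both ways, and the stability of the messages was not measured here. Of 32 such genes 10 were raised (31.2%, beside 10.6% of all genes) and 9 lowered (28.1%, beside 10.8%), with a median of 0.01. The lysophosphatidic acid receptor gene Lpar6 read 10.08, 10.23 and 10.05 in Cont and 9.13, 9.08 and 9.04 in HS, a change of -1.04, and the Notch glycosyltransferase gene Lfng changed by -0.94. Both sets of HS arrays were below all Cont arrays, and the responses in SCR were -1.15 and -0.99. In the other direction Id2 rose by 0.54, the SMAD corepressor gene Skil by 0.50 and the survival gene Mcl1 by 0.46. Of 25 cytokine and NF-kB target genes 7 were lowered (28%, beside 10.8% of all genes) and 1 raised (4%), with a median of -0.10. The NF-kB inhibitor gene Nfkbia changed by -0.51 and the chemokine gene Ccl2 by -0.46.

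Most of the histone genes and a smaller share of the zinc finger genes were lowered. Of 26 replication-dependent histone genes, whose messages lack the usual poly(A) tail, 18 were lowered (69.2%, beside 10.8% of all genes) and 0 raised (median -0.48). In SCR cells 22 were lowered (84.6%, beside 8.34% of all genes). H1f5 changed by -1.18 (interval of the difference from SCR -0.17 to 0.48), H1f1 by -0.73 and H4c6 by -0.66. Of 317 Zfp genes 84 were lowered (26.5%, beside 10.8% of all genes) and 24 raised (7.57%), with a median of -0.09. In SCR cells 92 were lowered (29.0%) and 20 raised (6.31%), beside 8.34% and 7.63% of all genes. Zfp39 changed by -0.83, Zfp748 by -0.64 and Zfp62 by -0.64.

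**Figure D5:**
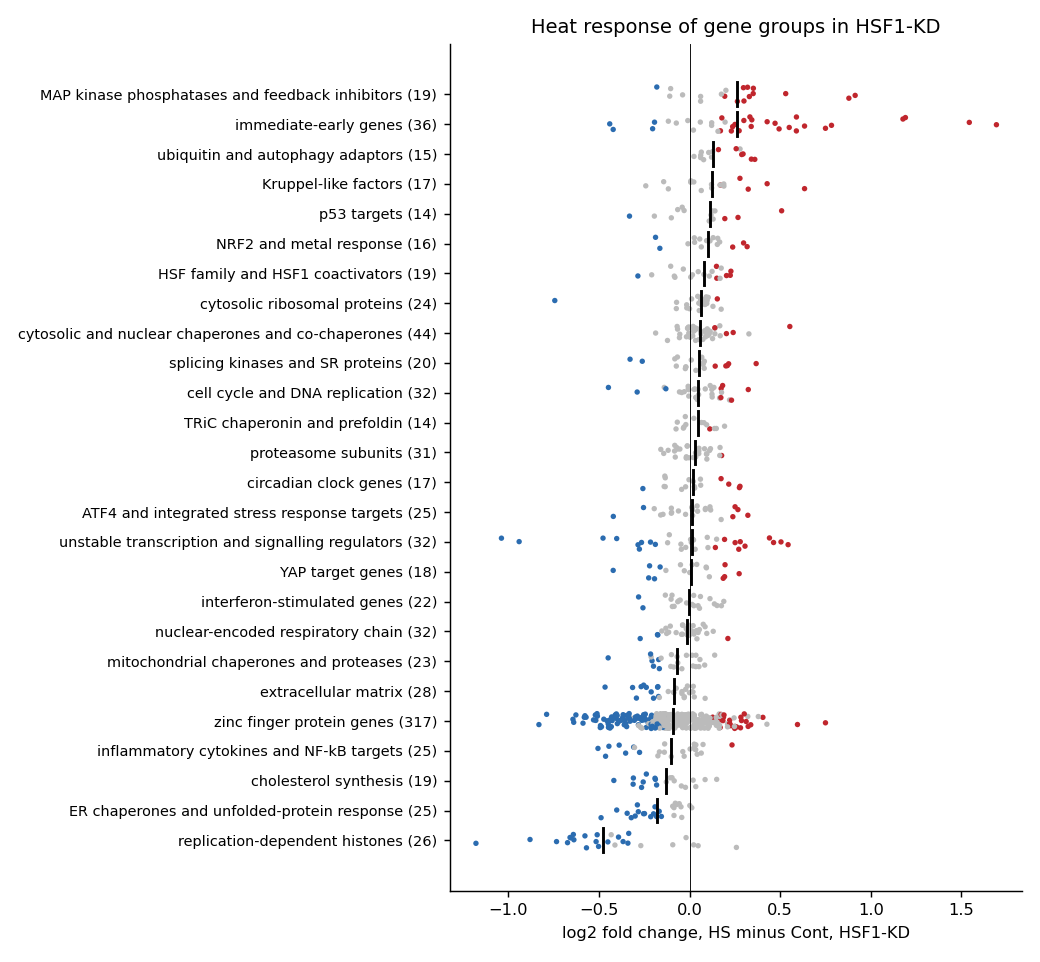
Log2 change with heat shock in HSF1-KD for each member of 26 gene lists, ordered by median (black bar), with called rises in red, called falls in blue and genes not called in grey, and the number measured in parentheses. Feedback inhibitors and immediate-early genes have the highest medians (0.26 each), chaperones lie at 0.06, and replication-dependent histones are lowest at -0.48.

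In the other stress pathways the shares called are to be read beside 10.6% of all genes raised and 10.8% lowered. Of 25 ATF4 targets 4 rose (16%) and 2 fell (8%), near those shares, with the folate enzyme gene Mthfd2 at 0.27 and the amino acid transporter genes Slc7a5 at -0.42 and Slc7a1 at -0.25. The other rises, Sesn2, Cebpb and Ppp1r15a, each lost their call under at least 1 alternative. Of 16 NRF2 and metal response genes 3 rose (18.8%) and 2 fell (12.5%), with the glutathione genes Gclm at 0.32 and Gsr at 0.30 and the ferritin gene Ftl1 at 0.24. The falls, Slc30a1 and Nfe2l2, lost their calls in 7 and 5 of 15 alternatives. Of 14 p53 targets 3 rose (21.4%) and 1 fell (7.14%), and the calls of Trp53inp1, Mdm2 and Perp were each lost under at least 1 alternative. The ribonucleotide reductase gene Rrm2b read 8.74 on each Cont array and 9.15, 9.28 and 9.31 in HS, a rise of 0.51 (adjusted p = 3e-05) with a difference from SCR of 0.18 (adjusted p = 0.59). Of 15 ubiquitin and autophagy genes 6 rose (40%) and 0 fell (median 0.13), Atg12 by 0.34 among them. The calls of the other rises, Gabarapl1, Gabarapl2, Wipi1, Map1lc3b and Bnip3l, were each lost under at least 1 alternative. For Gabarapl2 these included its second probe set. Of 17 clock genes 4 rose (23.5%) and 1 fell, with Clock itself at 0.27. The other rises, Nr1d2, Cry1 and Arntl, and the fall, Nr1d1, each lost their call under at least 1 alternative. Of 18 YAP target genes 4 rose (22.2%) and 5 fell (27.8%), with the receptor kinase gene Axl at -0.22. In SCR cells 6 of these 18 rose (33.3%) and 2 fell (11.1%), beside 7.63% and 8.34% of all genes. By the test of the difference 5 of the 18 responded lower in HSF1-KD than in SCR, beside 0.336% of all genes.

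The groups that serve basic cell functions had medians close to the -0.009 of all genes. Their calls are to be read beside 10.6% of all genes raised and 10.8% lowered. Proteasome subunits had 1 rise and 0 falls among 31 genes (median 0.03), ribosomal proteins 1 rise and 1 fall among 24 (0.06), respiratory chain subunits 1 rise and 3 falls among 32 (-0.01), interferon-stimulated genes 0 rises and 2 falls among 22 (-0.001) and cell cycle genes 5 rises and 3 falls among 32 (0.04). The ribosomal protein gene that fell was Rpl30. It read 9.87, 9.90 and 9.88 in Cont and 9.25, 9.23 and 8.93 in HS, all lower, with a change of -0.74 (adjusted p = 0.00048). The proliferation marker Mki67 changed by -0.45 and the replication helicase gene Mcm3 by 0.32. Of 23 mitochondrial chaperones and proteases 6 fell (26.1%) and 0 rose (median -0.07), with the disaggregase gene Clpb at -0.21. The calls of the other falls, Oma1, Htra2, Spg7, Afg3l1 and Afg3l2, were each lost under at least 1 alternative. Of 20 splicing genes 5 rose (25%) and 2 fell (10%), with Tra2b at 0.22 (0.36 in its second probe set). Tra2a and Srsf10 lost their calls in their second probe sets, with changes of 0.03 and 0.02 there. The call of Srsf9 was lost in 2 of 15 alternatives, and those of the falls, Cirbp and Clk1, under the methods' t-test.

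Among the HSF family and its coactivators, 5 of 19 genes rose (26.3%, beside 10.6% of all genes) and 1 fell (5.26%, beside 10.8%), with a median of 0.08. The acetyltransferase gene Crebbp rose by 0.23 and the replication protein gene Rpa2 by 0.22. The calls of the other rises, Smarcd1, Ep300 and Med1, were lost in 7, 3 and 1 of 15 alternatives. Ssbp1 read 9.62, 9.55 and 9.49 in Cont and 9.32, 9.35 and 9.13 in HS, all lower. Its change of -0.29 (adjusted p = 0.02) was beside -0.36 in SCR. The call was lost in 5 of 16 alternatives (adjusted p up to 0.108), among them those without Cont replicate 1, without Cont replicate 2 and without HS replicate 3. The change was -0.22 without HS replicate 3 and -0.87 in the second probe set of the gene. Hsf2 read 10.13, 9.94 and 9.99 in Cont and 10.18, 10.22 and 10.17 in HS, a change of 0.17 that was not called (adjusted p = 0.062).

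Promoter letters were searched for genes whose response depended on the knockdown and for genes that rose in it. Promoter windows (RefSeq, GRCm38.p6, from 250 bases before to 50 after the start) were at hand for 15614 genes. A heat shock element was taken as GAANNTTCNNGAA or TTCNNGAANNTTC on either strand, a cyclic AMP response element (the site of ATF and CREB factors) as TGACGTCA, and the CArG box of SRF by its usual form. Heat shock elements were in 0.564% of all windows and in 4 of the 54 windows (7.41%) of genes with a lower response in HSF1-KD than in SCR: Hspd1, Hspe1, Hsph1 and Kctd18. In those 54 windows TGACGTCA was found in 3.7% (Atg16l2 and Dusp1) and a CArG box in 3.7% (Dusp5 and Egr2), and 3 of 37 chaperone windows (8.11%) held a heat shock element. Windows were at hand for 43 of the 62 genes called and raised more than 1.5-fold in HSF1-KD. Of these, 1 held a heat shock element (2.33%, Tbr1) and 2 a CArG box (4.65%, beside 1.63% of all windows, Egr2 and Zfp36). TGACGTCA was in 5 (11.6%, beside 2.72% of all windows), those of Dusp1, Dusp8, Snapc5, Ubn1 and Zfp367. The 39 windows at hand for the 105 genes lowered more than 1.5-fold held none of the 3 motifs. These are matches of letters, not measured binding, and were not tested. The stretches around the matches are shown for Hspe1, whose heat response was lost, and for 4 genes that rose, of which Dusp1 and Dusp5 also responded lower than in SCR, with the motif in capitals and on the strand of the gene.
Hspe1: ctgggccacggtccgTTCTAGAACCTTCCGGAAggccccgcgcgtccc
Dusp1: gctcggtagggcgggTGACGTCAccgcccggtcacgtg
Dusp8: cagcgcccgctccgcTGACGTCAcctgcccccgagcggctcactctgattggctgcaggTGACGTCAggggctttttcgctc
Zfp36: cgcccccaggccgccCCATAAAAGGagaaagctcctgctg
Dusp5: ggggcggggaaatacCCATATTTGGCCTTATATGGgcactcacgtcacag
The Hspe1 stretch lies at chr1:55088044-55088091 (plus strand) between Hspd1 and Hspe1, which are transcribed away from each other, and changes of 0.06 and 0.01 were measured for this pair. The Dusp1 stretch lies at chr17:26508593-26508630 (minus), the Dusp8 stretch with 2 matches at chr7:142095325-142095406 (minus), the Zfp36 stretch at chr7:28379262-28379301 (minus) and the Dusp5 stretch at chr19:53529048-53529097 (plus). Rises of 0.91, 0.88, 0.75 and 0.53 were measured for these 4 genes. That of Dusp5 was under 1.5-fold, so its window was not among the 43.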

How the data were processed

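18 RNA samples were hybridised to Affymetrix Mouse Gene ST arrays, 3 for each of 6 groups. Per the labels, 200 ng of total RNA (RNeasy Mini) was labelled with the Ambion WT Expression kit. The authors deposited 1 table of log2 signals for 35557 probe sets, made with RMA in Partek 6.5 according to their processing notes. RMA corrects background and equalises the arrays, so that a shift of all genes alike cannot be seen. No further normalization was applied here, and arrays have no read depth, so that their number limits the precision.

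A single gene symbol was available for 21789 probe sets, several for 1621 and none for 12147. Where several probe sets carried 1 of the 19938 symbols, the brightest was used, and 21698 probe sets matched the RefSeq gene table. Linear models were fitted to the log2 values in R 4.3.3 with the package limma 3.58.1 (lmFit and eBayes, 1 mean per group, all 18 arrays, 12 residual and 2.36 prior degrees of freedom). Contrasts were HS minus Cont within HSF1-KD, SCR and SSBP1-KD, and the difference between HSF1-KD and SCR (interaction). p-values were adjusted by Benjamini-Hochberg over all probe sets. The procedure was tested on simulated data.

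Gene lists were described by counts and medians, with no set test. The members and lists were chosen with earlier results of these data known. The naming rule took the 15 largest rises and falls with arrays that did not overlap, up to 10 differences from SCR in each direction, chaperones called in HSF1-KD or SCR with Hspd1, Hspe1 and Hspa9, up to 6 members of each other list, genes called in opposite directions, and genes the paper names, and skipped symbols without a gene-like name. MicroRNA and snoRNA genes outside these, with the genes that span them, Plekhf1, Tor4a and Atp6v0a1 were chosen after their values were seen. Alternatives covered scaling, dim and unnamed probe sets, arrays in the fit, the prior, array weights, a replicate block, single arrays left out and the methods' t-test.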

Additional observations from a re-analysis of the deposited data

Results flagged for a closer look

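The following heat responses differed between HSF1-KD and SCR by limma's test of the difference itself at an adjusted p under 0.05. Values are the log2 response in HSF1-KD minus that in SCR. The lower responses among chaperones were -3.76 for Hspa1a, -2.85 for Dnajb1, -2.27 for Hsph1, -1.91 for Bag3, -1.88 for Hspb1 and -1.50 for Dnaja4. Outside the chaperones they were -2.79 for Snord14e, -2.25 for Phlda1, a gene of a pleckstrin homology-like protein, -1.47 for Uspl1, -1.44 for Atf3, -0.98 for Fos and -0.58 for Dusp1. Genes called in opposite directions gave -0.90 for Ccn1, -0.69 for Plekhf1, -0.58 for Ccn2 and -0.29 for Atg16l2, whose difference call was lost in 17 of 21 alternatives. Higher responses in HSF1-KD were 0.52 for Egr1 and 0.43 for Ccnf. In HSF1-KD Phlda1 read 9.69, 9.59 and 9.63 in Cont and 10.03, 10.11 and 9.89 in HS, a rise of 0.38 (adjusted p = 0.0068) that did not overlap Cont, beside 2.62 in SCR. Uspl1 read 10.01, 10.07 and 10.00 in Cont and 10.15, 10.12 and 10.00 in HS, overlapping groups with a change of 0.06 (adjusted p = 0.64) beside 1.53 in SCR.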

How the results depend on the processing

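The counts of genes raised and lowered in HSF1-KD (2114 and 2158) were 1330 and 1412 with only the 6 compared arrays in the fit, 1065 and 1104 by the methods' t-test after Benjamini-Hochberg, 2867 and 2970 by that t-test unadjusted, and 63 and 106 with a fold change over 1.5 and an unadjusted p. Leaving out single arrays gave 1524 to 1974 raised and 1632 to 2024 lowered genes. The 67 lower responses in HSF1-KD than in SCR were 32 by the methods' t-test after adjustment, 1007 unadjusted and 61 with fold and p, and 47 to 85 when single arrays were left out. The 2 higher responses were 9 among the brighter probe sets, 7 among probe sets with 1 symbol, 7 with a trended and robust prior, 21 with array weights, 1050 by the unadjusted t-test, 9 with fold and p, and 1 to 8 without single arrays. The cause of these shifts was not tested.

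Same-numbered arrays did not pair: 6 of 45 residual correlations exceeded 0.1 (-0.276 to 0.171). With the replicate number as a block, 2002 genes were raised, 2051 lowered, 61 responded lower and 2 higher. The block lost 0 heat calls and 2 difference calls of named genes, Gadd45b and Atg16l2.

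Of 172 named genes called in HSF1-KD, 103 kept their call under every alternative run, and of 34 called differences 22 did. Of 62 named genes not called, 44 were called under no alternative. 0 called values changed sign, whereas the estimates of uncalled genes lay on both sides of 0 across alternatives for 13 genes in HSF1-KD and for 58 differences. The settings that lost the most of the 172 HSF1-KD calls were the methods' t-test after adjustment (58) and only the compared arrays in the fit (39). A change near the dim end of the scale may be compressed.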
